A study of Mus musculus with 16 samples.

Results

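GABA is the main inhibitory transmitter of the forebrain, and 26 genes that make it, move it, sense it or set the chloride gradient behind it were followed in the mouse hippocampus. The genes were given by name, and a probe belonged to a gene when the RefSeq transcript recorded for it was one of that gene. All 26 of them had a probe, out of 17178 genes named in this way. Hippocampal RNA was taken from males of 2 senescence-accelerated lines, the senescence-prone SAM/P-8 and the senescence-resistant SAM/R-1, both derived from AKR/J stock per the labels. From 8 weeks of age the mice ate a rodent chow, CE-2, for 8 weeks, alone in the control groups or with 0.1% CCH, coral calcium hydride, in the CCH groups. Each of the 4 groups, SAM/P-8 control, SAM/P-8 CCH, SAM/R-1 control and SAM/R-1 CCH, had 4 one-colour arrays. Whether the 4 arrays of a group are different animals is not stated in the labels, and the p-values cover only the spread among these samples, which may be technical. Both lines are selected strains, and a strain difference covers every locus at which they differ.

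In this system glutamate decarboxylases, encoded by Gad1 and Gad2, turn glutamate into GABA, the vesicular transporter Slc32a1 loads it into synaptic vesicles, and Abat breaks it down. Transporters of the plasma membrane, among them Slc6a11 and Slc6a13, take it up again. Released GABA opens GABA-A receptors, which are chloride channels built from several subunits, and it activates GABA-B receptors, which couple to G proteins and need both Gabbr1 and Gabbr2. In the hippocampus, receptors with the alpha-5 subunit carry much of the slow inhibition of pyramidal cells outside synapses, and receptors with the delta subunit do so in dentate granule cells. The chloride transporters Slc12a5 and Slc12a2 set whether an open channel inhibits a neuron.

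The sequences of 5 promoters are shown, of genes that had their highest or lowest level of 16 on the same array, SAM/P-8 CCH replicate 4. Of 22 genes measured on all arrays, 9 were at their highest and 4 at their lowest there, and the 5 were picked by name from these. Other genes, such as Gabrd, moved further on that array. Gad1, Gad2 and Slc32a1 mark GABAergic neurons and were highest on it. Gabra4 and Gabrb1 overlap at their 5' ends, with RefSeq start sites 387 bases apart on opposite strands, so that each window shown lies downstream of the start of the other gene. On that array Gabra4 was at its highest and Gabrb1 at its lowest. Each sequence is the 250 bases before the RefSeq start site in GRCm38.p6, 5' to 3' on the gene's own strand. The positions are chr2:70561879-70562128 on the plus strand for Gad1, chr2:22622077-22622326 on the plus strand for Gad2, chr2:158610508-158610757 on the plus strand for Slc32a1, chr5:71658309-71658558 on the minus strand for Gabra4 and chr5:71657671-71657920 on the plus strand for the first of the start sites of Gabrb1. Capitals mark matches on either strand to TATAAA, the core of a TATA box, CCAAT, the core of a CCAAT box, and GGGCGG, the core of a GC box.
Gad1: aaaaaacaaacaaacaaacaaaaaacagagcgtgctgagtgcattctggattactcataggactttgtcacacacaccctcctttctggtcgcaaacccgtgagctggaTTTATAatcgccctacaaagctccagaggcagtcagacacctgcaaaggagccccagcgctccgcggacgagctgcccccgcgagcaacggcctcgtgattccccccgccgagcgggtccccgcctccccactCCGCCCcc
Gad2: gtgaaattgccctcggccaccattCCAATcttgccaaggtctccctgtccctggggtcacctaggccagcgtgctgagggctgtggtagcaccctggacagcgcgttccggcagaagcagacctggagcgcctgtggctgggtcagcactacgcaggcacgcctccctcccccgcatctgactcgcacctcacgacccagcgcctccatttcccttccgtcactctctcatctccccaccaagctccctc
Slc32a1: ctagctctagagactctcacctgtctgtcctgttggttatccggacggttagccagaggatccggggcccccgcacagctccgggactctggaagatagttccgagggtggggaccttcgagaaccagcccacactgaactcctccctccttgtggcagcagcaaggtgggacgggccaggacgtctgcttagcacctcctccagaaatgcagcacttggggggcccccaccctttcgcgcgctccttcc
Gabra4: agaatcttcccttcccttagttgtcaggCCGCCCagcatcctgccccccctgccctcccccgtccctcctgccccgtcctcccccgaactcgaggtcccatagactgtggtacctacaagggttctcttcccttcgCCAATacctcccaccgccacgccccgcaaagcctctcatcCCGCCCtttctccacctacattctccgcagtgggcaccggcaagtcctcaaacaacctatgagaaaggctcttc
Gabrb1: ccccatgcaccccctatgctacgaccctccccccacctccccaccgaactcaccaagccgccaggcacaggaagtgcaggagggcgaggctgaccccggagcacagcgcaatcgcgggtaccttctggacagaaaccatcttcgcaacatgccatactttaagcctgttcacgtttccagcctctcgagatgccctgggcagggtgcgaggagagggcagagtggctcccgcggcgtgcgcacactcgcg
Gad1 held 1 match to TATAAA and 1 to GGGCGG, Gad2 held 1 to CCAAT, and Gabra4 held 1 to CCAAT and 2 to GGGCGG. Slc32a1 and Gabrb1 held none of these letters in the window, and none of the 5 held TAATTA, a core that homeodomain factors bind. Over 32851 mouse promoter windows of the same length, 12.4% held TATAAA, 33.8% CCAAT, 32.7% GGGCGG and 4.84% TAATTA. The GC content of the 5 windows was 58.0% for Gad1, 64.0% for Gad2, 62.4% for Slc32a1, 61.2% for Gabra4 and 64.4% for Gabrb1, against a median of 52.4% over all windows. RefSeq windows were held for 23 of the 26 genes, and the matches describe letters only.

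Levels are log2 of the processed signal minus the 75th percentile of the array, so they are relative to the other probes on that array, and the level of one probe is not set against that of another. In whole tissue, fewer cells of a type and less RNA per cell cannot be told apart. On each array 28920 to 33333 of 43379 non-control spots were well above background. Precision is limited by the number of arrays. The 4 groups were hybridised on 4 slides, 1 group each, and an effect of the slide cannot be told apart from that of the group. The tissue label was checked against 12 markers of hippocampal excitatory neurons with a probe, of which 11, Slc17a7, Neurod6 and Prox1 among them, exceeded background clearly on all 16 arrays, and Iyd on none. Of the 26 genes, 22 did so on all 16 arrays, so that none of them entered the tests through 1 group alone. Gabre, Gabrq and Gabrr2, which encode the epsilon, theta and rho-2 subunits, were not well above background on any array. Gabra6 was well above background on 2 arrays.

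Before the comparisons, 2 arrays stood apart by markers of other brain regions. On SAM/P-8 CCH replicate 4 the score over 12 striatal markers, the mean deviation of each from its mean over the arrays, was 3.72, and on the other 15 arrays it lay between -0.74 and 0.18. Penk, proenkephalin, was at 7.14 there and between 2.36 and 4.13 elsewhere. The log2 of the summed linear levels of the 12 markers ranged from 3.55 to 7.75 in SAM/P-8 CCH and from 3.29 to 4.56 over the other groups, and 10 of the 12 were well above background throughout. This array was the highest of 16 for 9 of the 22 GABA genes and the lowest for 4. Slc32a1 was at 5.85 there against 4.73 to 5.20 on the other 15, Gabrd at 4.17 against 2.69 to 3.45, Gad2 at 3.03 against 2.22 to 2.88 and Gabra4 at 4.15 against 3.54 to 3.93. Gabra5 was at 1.27 against 1.58 to 2.15 and Gabrb1 at 2.62 against 2.79 to 3.05. The score of the hippocampal excitatory markers was -0.42 there, the lowest of 16. Over whole groups, 10 of 11 such markers were lower on CCH in SAM/P-8 and 9 of 11 in SAM/R-1, with medians of -0.33 and -0.13. At an unadjusted p under 0.05 in limma there were 7 and 2 of them, against 19% and 11.4% of all genes, and 0 passed. Their score lay between -0.20 and -0.11 in SAM/R-1 CCH and between -0.10 and 0.06 in SAM/R-1 control. The other array was SAM/P-8 control replicate 1, on which Cbln1, a synaptic organiser released by cerebellar granule cells, was at 3.63, against -1.5 to 1.16 on the other 15, and Gabra6 at 0.60. The score of the cerebellar markers was 1.81 on that array and at most 0.78 elsewhere, and Fat2 was well above background on none. Markers of the choroid plexus, of which 7 were measured and all were well above background throughout, also set arrays apart. Their score lay between -2.92 and -1.23 on 5 arrays, SAM/P-8 control replicate 4, SAM/P-8 CCH replicate 3, SAM/R-1 control replicate 4 and SAM/R-1 CCH replicates 2 and 3, and between 0.27 and 1.67 on the other 11. What part other tissue has in the values of these arrays was not tested, and some of the results that rest on them are given with and without them. Without SAM/P-8 CCH replicate 4 the difference between the diets in SAM/P-8 went from 0.20 to -0.03 for Slc32a1. By the brightest probe of each gene it went from 0.21 to 0.11 for Gad1 and from -0.28 to -0.14 for Gabra5, while for Gabra3 it grew from 0.22 to 0.31.

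**Figure D1:**
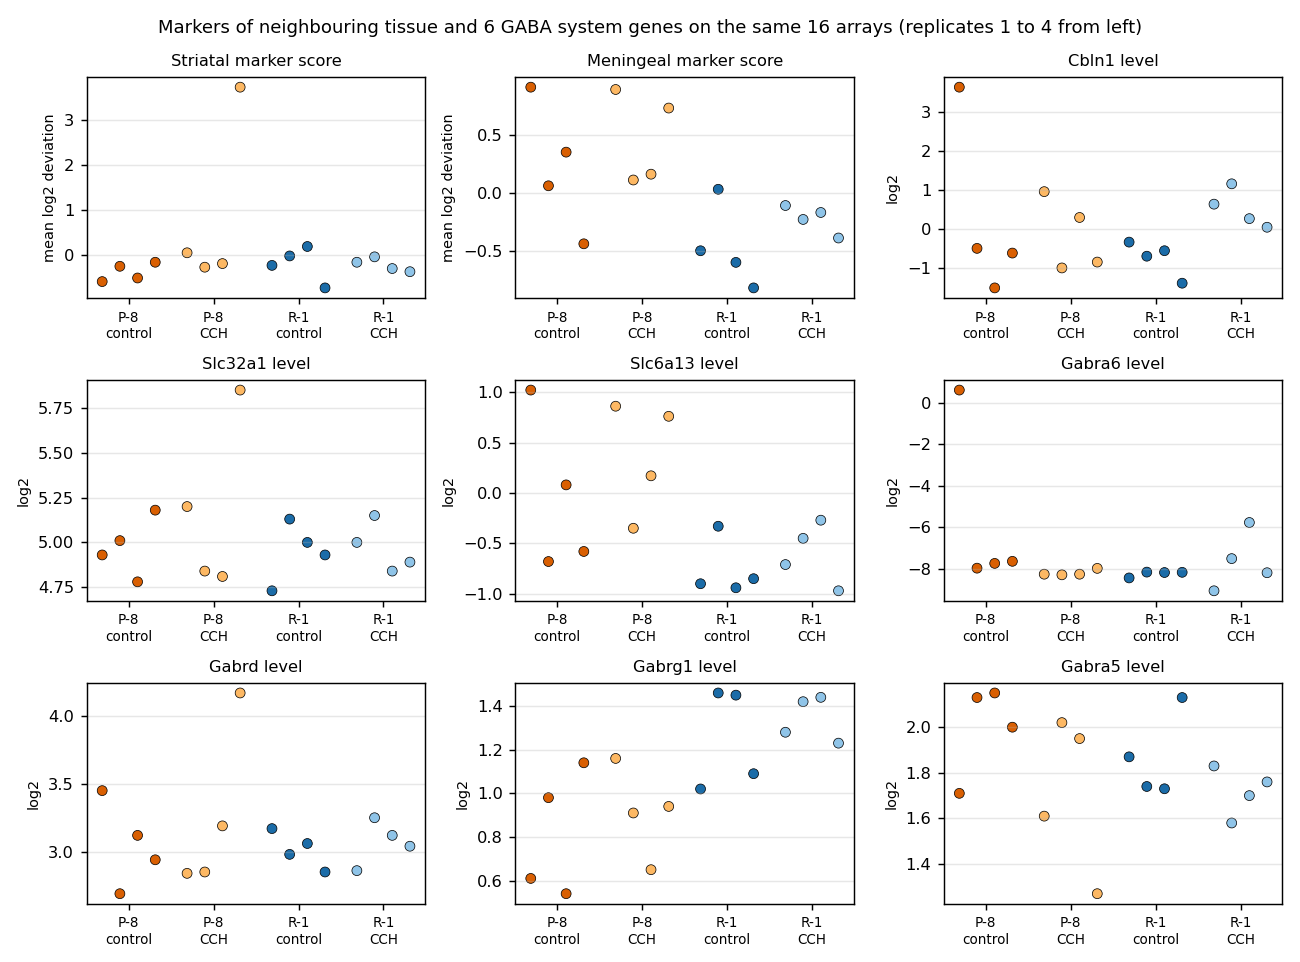
Each panel shows the 16 arrays in 4 groups of 4, replicates 1 to 4 from left, with the log2 level of a gene or the mean deviation of a marker list on the vertical axis. SAM/P-8 CCH replicate 4 is highest for the striatal score and for Slc32a1 and Gabrd, SAM/P-8 control replicate 1 for Cbln1 and Gabra6, and the 3 arrays with the highest meningeal scores are the 3 highest for Slc6a13.

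**Figure D2:**
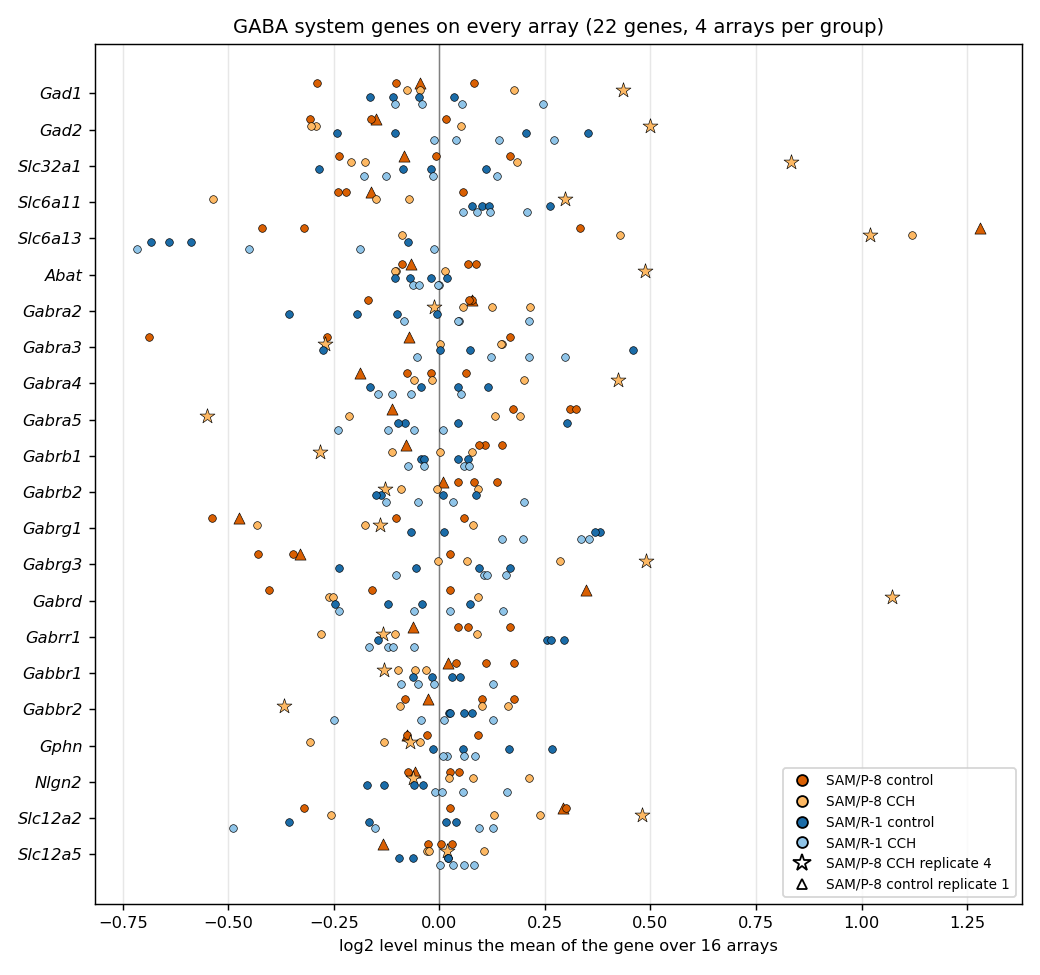
The log2 level on each of 16 arrays is plotted for 22 genes after subtracting the mean of the gene over the arrays, with colours for the 4 groups, a star for SAM/P-8 CCH replicate 4 and a triangle for SAM/P-8 control replicate 1. The star is the highest point for 9 genes and the lowest for 4.

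For the enzymes, the level of Gad1, which makes most of the GABA pool, was 2.68, 2.62, 2.44 and 2.81 in SAM/P-8 control and 2.91, 2.65, 2.68 and 3.16 in SAM/P-8 CCH. In SAM/R-1 it was 2.56, 2.76, 2.62 and 2.68 on the control diet and 2.78, 2.97, 2.69 and 2.62 on CCH. By this probe, the brightest, the arrays of the 4 groups overlapped, and none of the comparisons of Gad1 passed the test. A second Gad1 probe differed between the strains on CCH by 0.30 ± 0.10 (limma adjusted p = 0.0601), where the brightest gave 0.08. Without SAM/P-8 CCH replicate 4 the second probe gave 0.22 ± 0.09 (limma adjusted p = 0.159). For the diet in SAM/R-1 it gave -0.03, where the brightest gave 0.11. Gad2, the isoform tied to synaptic vesicles, ranged from 2.22 to 2.54 in SAM/P-8 control, 2.22 to 3.03 in SAM/P-8 CCH, 2.28 to 2.88 in SAM/R-1 control and 2.51 to 2.80 in SAM/R-1 CCH. Abat lay between 2.99 and 3.18 on 15 of the arrays and at 3.58 on SAM/P-8 CCH replicate 4.

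Among the transporters, Slc32a1 lay between 4.73 and 5.20 on 15 arrays, with group means ± SD of 4.98 ± 0.17 in SAM/P-8 control, 5.17 ± 0.48 in SAM/P-8 CCH, 4.95 ± 0.17 in SAM/R-1 control and 4.97 ± 0.14 in SAM/R-1 CCH (n = 4 each). Slc6a11, an uptake transporter found mainly on astrocytes, was at 1.30, 1.24, 1.22 and 1.52 in SAM/P-8 control and at 1.56, 1.54, 1.72 and 1.58 in SAM/R-1 control. These arrays did not overlap, the SAM/P-8 group being lower, and the difference of -0.28 ± 0.13 (SE) did not pass the limma test over all probes (adjusted p = 0.169). On CCH the level of Slc6a11 was 1.31, 1.39, 0.93 and 1.76 in SAM/P-8 and 1.58, 1.52, 1.67 and 1.55 in SAM/R-1. There SAM/P-8 replicate 4 was above all SAM/R-1 arrays and the other SAM/P-8 arrays were below them. The difference on CCH was -0.23 ± 0.13 (limma adjusted p = 0.25), and without that array it was -0.37 ± 0.10 and passed (limma adjusted p = 0.0322). The other probe of Slc6a11 gave 0.05 ± 0.12 on CCH (limma adjusted p = 0.818) and -0.07 ± 0.10 without that array (limma adjusted p = 0.726), so the call rests on 1 of the probes.

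Slc6a13, an uptake transporter best known from the meninges, had the widest range of the 22 measured genes. Its level was 1.02, -0.68, 0.08 and -0.58 in SAM/P-8 control, 0.86, -0.35, 0.17 and 0.76 in SAM/P-8 CCH, -0.90, -0.33, -0.94 and -0.85 in SAM/R-1 control and -0.71, -0.45, -0.27 and -0.97 in SAM/R-1 CCH. The 3 highest arrays were SAM/P-8 control replicate 1 and SAM/P-8 CCH replicates 1 and 4, and the strains overlapped on both diets. The strain difference was 0.71 ± 0.34 on the control diet (limma adjusted p = 0.192) and 0.96 ± 0.34 on CCH (limma adjusted p = 0.0778). Without SAM/P-8 CCH replicate 4 the difference on CCH was 0.83 ± 0.37 (limma adjusted p = 0.177). Without SAM/P-8 control replicate 1 the control-diet difference was 0.36 ± 0.28, and the difference between the diets in SAM/P-8 was 0.76 ± 0.28 (limma adjusted p = 0.148) in place of 0.40 ± 0.34. A score over 12 meningeal and fibroblast markers, the mean deviation of each gene from its mean over the arrays, was 0.91, 0.89 and 0.73 on those same 3 arrays. It lay between -0.44 and 0.35 on the other SAM/P-8 arrays and between -0.82 and 0.03 in SAM/R-1. The log2 of the summed linear levels of the 12 markers ranged from 4.44 to 5.51 in SAM/P-8 control, 4.73 to 5.56 in SAM/P-8 CCH, 4.23 to 5.14 in SAM/R-1 control and 4.66 to 5.04 in SAM/R-1 CCH, and all 12 were well above background throughout. Of the 12, 1 passed as higher in SAM/P-8 on the control diet, Islr by 0.60 ± 0.15, and 2 on CCH, Islr by 0.56 ± 0.15 and the collagen gene Col3a1 by 1.13 ± 0.35 (limma adjusted p = 0.0123, 0.019 and 0.0453). Of all genes tested, 6.17% were higher in SAM/P-8 on the control diet and 6.15% on CCH. At an unadjusted p under 0.05 in limma there were 8 of the 12 markers on the control diet and 7 on CCH, against 26.7% and 27.7% of all genes. On each diet 11 of the 12 differences were above 0 and 1 was below. Their medians were 0.68 on the control diet and 0.71 on CCH, against -0.01 and -0.02 over all genes. Among 8 endothelial and pericyte markers, 7 were higher in SAM/P-8 on the control diet and 3 on CCH, with Rgs5, a pericyte gene, higher by 0.92 ± 0.10 and 0.69 ± 0.10 (limma adjusted p = 1.81e-05 and 0.000323). The score of these 8 lay between 0.06 and 0.47 in SAM/P-8 and between -0.47 and 0.01 in SAM/R-1. The part of meningeal or vascular tissue in the Slc6a13 values was not tested.

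GABA-A receptor subunits made up 14 of the genes, and 10 of them were measured on all arrays. Gabrg1, the gamma-1 subunit, was at 0.61, 0.98, 0.54 and 1.14 in SAM/P-8 control and at 1.02, 1.46, 1.45 and 1.09 in SAM/R-1 control. On CCH it was at 1.16, 0.91, 0.65 and 0.94 in SAM/P-8 and at 1.28, 1.42, 1.44 and 1.23 in SAM/R-1. The strains overlapped on the control diet and did not on CCH, SAM/P-8 being lower on both. The difference was -0.44 ± 0.15 on the control diet (95% interval -0.75 to -0.13, limma adjusted p = 0.061) and -0.43 ± 0.15 on CCH (95% interval -0.74 to -0.11, limma adjusted p = 0.0675). Neither passed the threshold of 0.05. Without SAM/P-8 control replicate 4 the control-diet difference was -0.55 (limma adjusted p = 0.0234), without SAM/R-1 control replicate 1 it was -0.52 (limma adjusted p = 0.0421), and without SAM/P-8 CCH replicate 1 the difference on CCH was -0.51 (limma adjusted p = 0.0473). Over 29 alternatives the control-diet difference lay between -0.60 and -0.35 and passed limma in 4. The difference on CCH lay between -0.51 and -0.25 and passed in 3 of 29.

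Gabrg3, the gamma-3 subunit and one of the dimmer probes, was at -4.68, -4.69, -4.78 and -4.32 in SAM/P-8 control and at -4.28, -4.06, -4.35 and -3.86 in SAM/P-8 CCH. All but 1 of the CCH arrays were above all control arrays. The difference between the diets was 0.48 ± 0.12 (unadjusted p = 0.00162, limma adjusted p = 0.0741). When SAM/P-8 control replicate 4 was left out it was 0.58 ± 0.12 (limma adjusted p = 0.0436). When SAM/P-8 CCH replicate 4, the highest array, was left out it was 0.39 ± 0.12 and did not pass (limma adjusted p = 0.156). In SAM/R-1 the level was -4.40, -4.18, -4.25 and -4.59 on the control diet and -4.24, -4.45, -4.23 and -4.19 on CCH, a difference of 0.08 ± 0.12. The test of the difference between the strains in this effect gave 0.40 ± 0.17 (limma adjusted p = 0.856).

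Gabra5, the alpha-5 subunit, ranged from 1.71 to 2.15 in SAM/P-8 control, from 1.27 to 2.02 in SAM/P-8 CCH, from 1.73 to 2.13 in SAM/R-1 control and from 1.58 to 1.83 in SAM/R-1 CCH. Its lowest array was SAM/P-8 CCH replicate 4, and the groups overlapped. By this probe the diets differed by -0.28 in SAM/P-8 and -0.14 in SAM/R-1. A second Gabra5 probe gave -0.02 ± 0.13 and 0.03 ± 0.13. Gabrd, the delta subunit, was at 3.45, 2.69, 3.12 and 2.94 in SAM/P-8 control, at 2.84, 2.85, 3.19 and 4.17 in SAM/P-8 CCH and between 2.85 and 3.25 on the 8 arrays of SAM/R-1. The difference between the diets of Gabrd in SAM/P-8 was 0.21 ± 0.24 with the array at 4.17 and -0.09 ± 0.15 without it. Gabra2, the alpha-2 subunit, was at 2.19, 2.38, 2.03 and 2.29 in SAM/R-1 control and at 2.60, 2.31, 2.44 and 2.43 in SAM/R-1 CCH, a difference of 0.22 ± 0.09 (unadjusted p = 0.0229, limma adjusted p = 0.369). The rho-1 subunit Gabrr1 was at -3.85, -3.84, -3.80 and -4.24 in SAM/R-1 control and between -4.27 and -4.16 in SAM/R-1 CCH, a difference of -0.28 ± 0.10 (unadjusted p = 0.0105, limma adjusted p = 0.301). In both genes the arrays of the diets overlapped. By their brightest probes Gabra3, Gabra4, Gabrb1 and Gabrb2, the alpha-3, alpha-4, beta-1 and beta-2 subunits, had group means that differed by 0.28 or less in every comparison of strains or diets. A dimmer Gabra3 probe differed between the diets in SAM/P-8 by 0.48 ± 0.14 and did not pass (limma adjusted p = 0.104). Between the strains on CCH it gave 0.11 ± 0.14, where the brightest gave -0.14.

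Gabra6, the alpha-6 subunit of cerebellar granule cells, was at 0.60 on SAM/P-8 control replicate 1 and at -5.78 on SAM/R-1 CCH replicate 3, the arrays on which it was well above background. On the other 14 arrays it lay between -9.07 and -7.52. No fold between groups is given because no group held more than 1 such array.

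Gabbr1, the subunit of GABA-B receptors that binds GABA, gave different answers by probe. By the brightest of its 3 probes it was at 3.67, 3.82, 3.69 and 3.76 in SAM/P-8 control and at 3.61, 3.59, 3.55 and 3.52 in SAM/P-8 CCH. The arrays did not overlap, CCH being lower, and the difference of -0.17 ± 0.05 did not pass (unadjusted p = 0.0084, limma adjusted p = 0.128). Between the strains this probe differed by 0.09 on the control diet and -0.07 on CCH. A second probe lay between 2.41 and 2.57 in SAM/P-8 control, 2.48 and 2.52 in SAM/P-8 CCH, 2.21 and 2.36 in SAM/R-1 control and 2.15 and 2.36 in SAM/R-1 CCH. On that probe the strains did not overlap on either diet. Over all probes, 13.9% passed between the strains on the control diet and 13.8% on CCH. SAM/P-8 was higher by 0.24 ± 0.05 on the control diet (limma adjusted p = 0.00854) and by 0.28 ± 0.05 on CCH (limma adjusted p = 0.0028). Without the 5 arrays low in choroid plexus markers the control-diet difference of that probe was 0.21 ± 0.06 and did not pass (limma adjusted p = 0.0577). The dimmest probe passed no comparison. Whether the probes differ by transcript or by a strain variant under one of them was not tested. Of 13 further probes of 10 genes, this one alone differed in its call from the brightest probe, on both diets, and 8 differed in sign on CCH and 3 on the control diet. For Gad2 the second probe differed between the strains by 0.27 ± 0.16 on the control diet and 0.43 ± 0.16 on CCH, where the brightest gave -0.20 and -0.12, and neither probe passed.

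**Figure D3:**
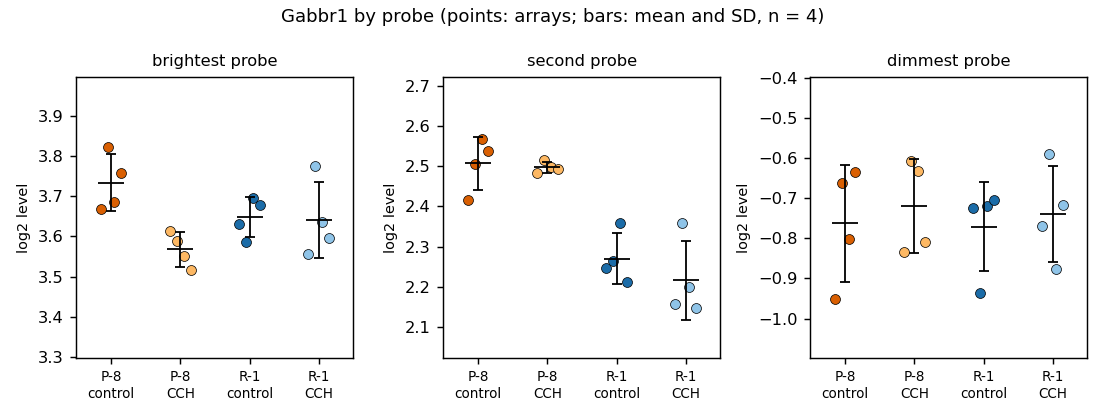
The log2 level of Gabbr1 is plotted per array for its 3 probes in the 4 groups, with the mean and SD (n = 4) as bars. The strains are apart on the second probe, at 2.41 to 2.57 against 2.15 to 2.36, and overlap on the brightest and the dimmest.

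The GABA-B subunit Gabbr2 lay between -1.13 and -0.59 on all arrays, with the lowest value on SAM/P-8 CCH replicate 4. Gphn, gephyrin, the scaffold under glycine and GABA-A receptors, was at 1.33, 1.51, 1.59 and 1.57 in SAM/P-8 CCH and at 1.66, 1.73, 1.65 and 1.70 in SAM/R-1 CCH. By this probe the SAM/P-8 arrays were all lower, and the difference was -0.18 ± 0.07 (unadjusted p = 0.0211, limma adjusted p = 0.103). The other Gphn probe differed the other way, by 0.17 ± 0.11 (limma adjusted p = 0.34), and the mean of both gave 0.00, so the direction depends on the probe. Nlgn2, neuroligin-2, an adhesion protein of inhibitory synapses, was at 2.61, 2.66, 2.73 and 2.75 in SAM/R-1 control and at 2.84, 2.95, 2.78 and 2.79 in SAM/R-1 CCH. Here the diets did not overlap, and the difference of 0.15 ± 0.06 did not pass the test (unadjusted p = 0.0258, limma adjusted p = 0.382). Slc12a5, which extrudes chloride from mature neurons, had the narrowest range of the 22, between 6.53 and 6.77. Its differences lay between -0.03 and 0.07 in the comparisons of strains and diets, and the widest of its 95% intervals reached 0.18. Slc12a2, which brings chloride in, ranged from 0.10 to 0.71 in SAM/P-8 control, from 0.16 to 0.89 in SAM/P-8 CCH, from 0.06 to 0.45 in SAM/R-1 control and from -0.07 to 0.54 in SAM/R-1 CCH. Its 4 lowest arrays, at -0.07, 0.06, 0.10 and 0.16, were all among the 5 with low choroid plexus scores, where the fifth was at 0.26. The log2 of the summed linear levels of the 7 choroid plexus markers ranged from 1.59 to 5.20 in SAM/P-8 control, 0.60 to 4.48 in SAM/P-8 CCH, 2.18 to 4.87 in SAM/R-1 control and 0.87 to 4.35 in SAM/R-1 CCH. The strain difference of Slc12a2 was 0.19 ± 0.18 on the control diet and 0.25 ± 0.18 on CCH, and without those 5 arrays it was 0.24 ± 0.11 and 0.17 ± 0.12. None of these passed limma.

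Between the strains on the control diet, 0 of the 22 genes passed the limma test by their brightest probe, against 12.9% of all 13458 genes tested. On CCH it was again 0 of 22, against 12.9%. At an unadjusted p under 0.05 there were 2 genes on the control diet, Slc6a11 and Gabrg1, and 3 on CCH, Slc6a13, Gabrg1 and Gphn, against 26.7% and 27.7% of all genes. Without the 5 arrays low in choroid plexus markers, 2 passed on the control diet, Gabrg1 at -0.60 ± 0.15 (limma adjusted p = 0.0352) and Gabrg3 at -0.44 ± 0.10 (limma adjusted p = 0.0291) in place of -0.26 ± 0.12 over all arrays, and 0 in the other comparisons. On CCH the Gabrg1 difference without those 5 arrays was smaller, -0.25 in place of -0.43. Differences ranged from -0.44 to 0.71 on the control diet and from -0.43 to 0.96 on CCH, with medians of 0.01 and 0.00 over the 22 genes and of -0.01 and -0.02 over all genes tested. The arrays of the strains did not overlap for 1 gene on the control diet and for 2 on CCH, against 19.2% and 20.9% of all genes. The 95% interval lay within a 1.5-fold difference either way for 19 genes on the control diet and 17 on CCH, and within a 2-fold difference for 21 on each, Slc6a13 being the exception. The strain comparisons share no arrays with each other, and each shares its SAM/P-8 and SAM/R-1 arrays with the diet comparisons.

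**Figure D4:**
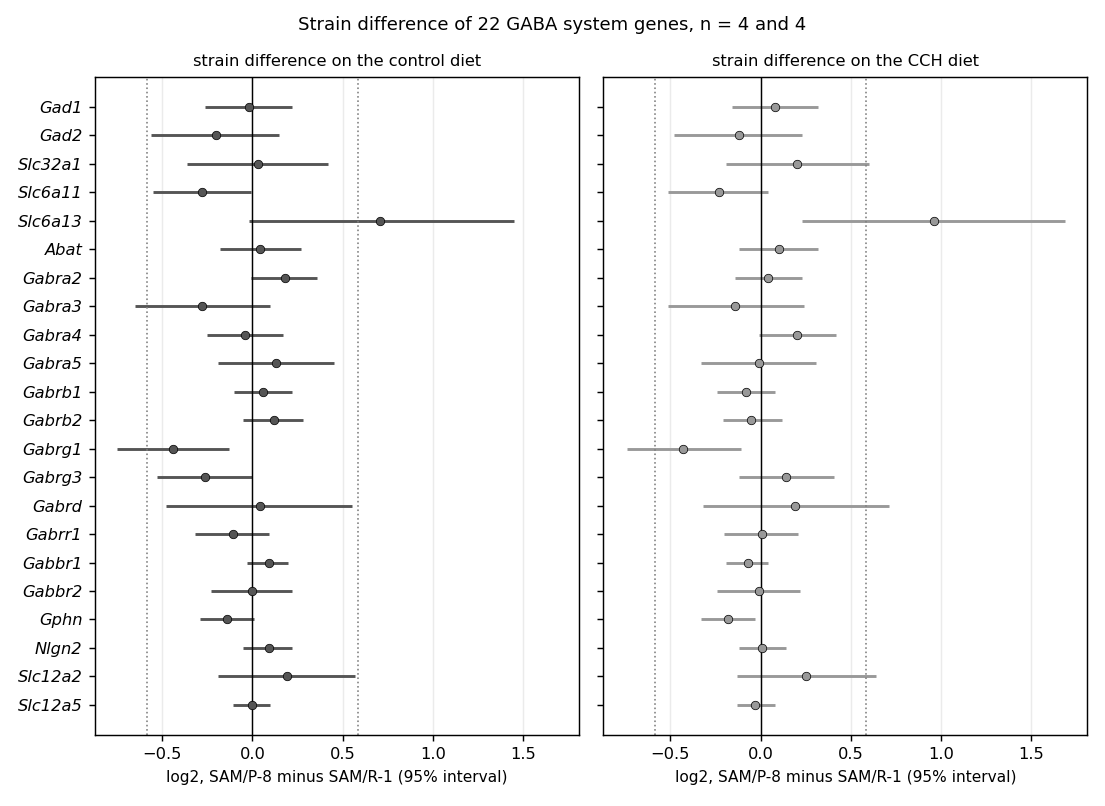
The log2 difference of SAM/P-8 minus SAM/R-1 with its 95% interval is plotted for 22 genes, on the control diet at left and on CCH at right (n = 4 and 4), with dotted lines at a 1.5-fold difference either way. Gabrg1 lies at -0.44 and -0.43 and Slc6a13 at 0.71 and 0.96, and most other intervals cross 0.

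Between the diets, 0 of 22 genes passed the limma test in SAM/P-8, against 0.869% of all genes, and 0 of 22 in SAM/R-1, against 0.0966%. At an unadjusted p under 0.05 these were 2 genes in SAM/P-8, Gabrg3 and Gabbr1, and 3 in SAM/R-1, Gabra2, Gabrr1 and Nlgn2, against 19% and 11.4% of all genes. In SAM/P-8 the median over the 22 genes was 0.08, with 15 differences above 0 and 7 below, and over all genes it was -0.03. Without SAM/P-8 CCH replicate 4 the median was -0.03, with 10 above 0 and 12 below. In SAM/R-1 the median was 0.04, and over all genes -0.02. Arrays of the diets did not overlap for 1 gene in each strain, against 10.2% and 9.81% of all genes. The 95% interval lay within a 1.5-fold difference for 16 genes in SAM/P-8 and for 21 in SAM/R-1. For the strain by diet interaction 0 of 22 genes passed, against 0.134% of all genes, and 1, Gabrg3, had an unadjusted p under 0.05, against 4.86%.

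**Figure D5:**
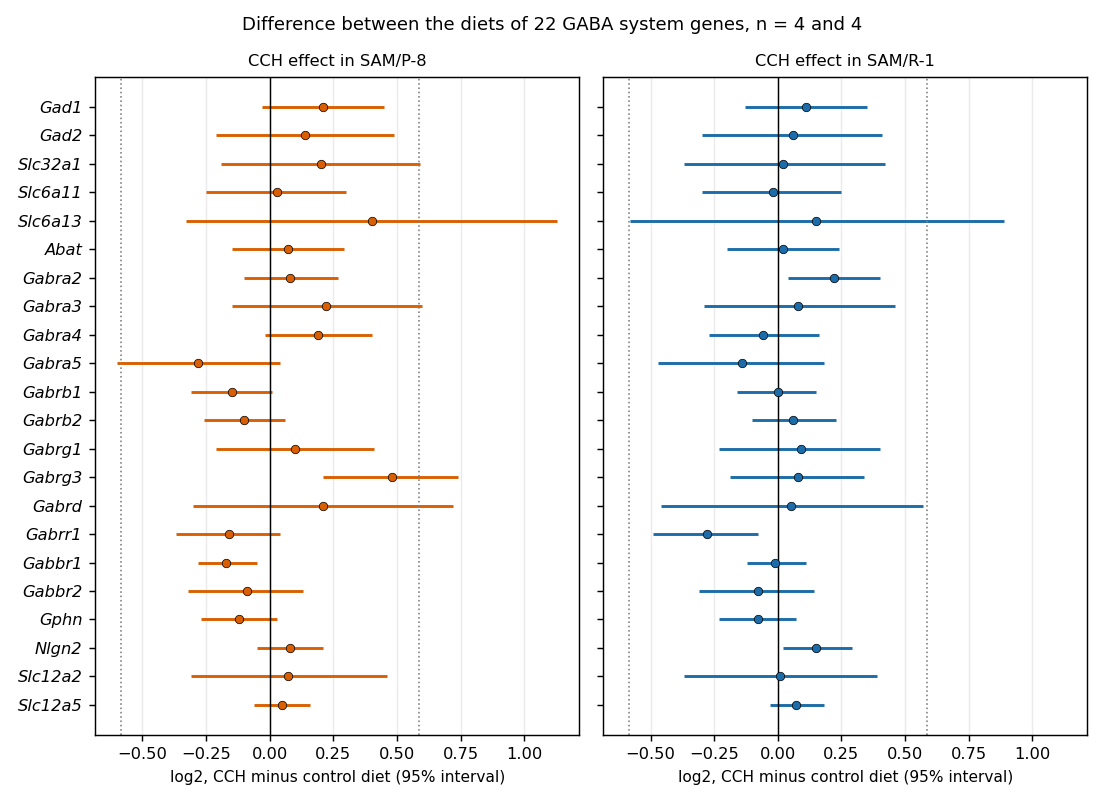
The log2 difference of CCH minus control diet with its 95% interval is plotted for 22 genes in SAM/P-8 at left and SAM/R-1 at right (n = 4 and 4), with dotted lines at a 1.5-fold difference either way. Gabrg3 lies at 0.48 in SAM/P-8 and at 0.08 in SAM/R-1.

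Genes around the GABA system were read from lists chosen for their role. Of 24 interneuron markers tested, 0 passed limma in any of the 5 comparisons, with 5, 6, 3, 2 and 1 at an unadjusted p under 0.05 for the strain difference on control diet and on CCH, the diet in SAM/P-8 and in SAM/R-1, and the interaction. The shares of all genes at that p were 26.7%, 27.7%, 19%, 11.4% and 4.86%. Of the 24 differences between the strains, 14 were above 0 and 10 below on the control diet, and 11 and 13 on CCH. Npy, a neuropeptide of interneurons, differed by -0.38 ± 0.13 between the strains on the control diet (limma adjusted p = 0.0676) and Sst, somatostatin, by -0.26 ± 0.10 on CCH (limma adjusted p = 0.0845). Ndnf, a marker of neurogliaform interneurons, went the other way, by 0.26 ± 0.10 on the control diet (limma adjusted p = 0.087) and 0.25 ± 0.10 on CCH (limma adjusted p = 0.105). Of 8 genes acting downstream of GABA-B receptors 0 passed in any comparison, with 0, 0, 1, 1 and 0 at an unadjusted p under 0.05 in the same order. Among 19 inhibitory synapse partners and trafficking genes, 2 rose and 0 fell in SAM/P-8 against SAM/R-1 on each diet. Of all genes, 6.74% were lower in SAM/P-8 on the control diet and 6.79% on CCH, beside the 6.17% and 6.15% that were higher. Dag1, dystroglycan, which sits at some inhibitory synapses and on glia around vessels, was higher by 0.45 ± 0.06 (limma adjusted p = 0.000203) and by 0.38 ± 0.06 on CCH (limma adjusted p = 0.000978). Trak1, an adaptor of mitochondrial transport, was higher by 0.27 ± 0.08 on the control diet (limma adjusted p = 0.03), and Shisa7, an auxiliary protein of GABA-A receptors, by 0.29 ± 0.08 on CCH (limma adjusted p = 0.0349).

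Among 13 genes of neuronal chloride and bicarbonate handling, 1 rose and 2 fell in SAM/P-8 on each diet. Car2, a carbonic anhydrase also abundant in glia, differed by -0.51 ± 0.10 on the control diet (limma adjusted p = 0.00403) and by -0.45 ± 0.10 on CCH (limma adjusted p = 0.0105). Car7, a neuronal carbonic anhydrase that supplies the bicarbonate passing through GABA-A channels, differed by -0.30 ± 0.07 (limma adjusted p = 0.00781) and by -0.24 ± 0.07 (limma adjusted p = 0.0346). Wnk1, a kinase upstream of the chloride transporters, was higher by 0.28 ± 0.07 (limma adjusted p = 0.0156) and by 0.26 ± 0.07 (limma adjusted p = 0.0281). Of 16 genes of glutamate supply and GABA breakdown, 0 passed on CCH, where 4 had an unadjusted p under 0.05. On the control diet Slc38a5, a glutamine transporter, was higher in SAM/P-8 by 0.64 ± 0.15 (limma adjusted p = 0.0109), and not every gene of this list is reported there. Between the diets 0 genes of these 5 lists passed limma in either strain. At an unadjusted p under 0.05 the last 3 lists, in the order given, held 6, 2 and 4 genes in SAM/P-8 and 5, 1 and 0 in SAM/R-1, against 19% and 11.4% of all genes. These lists had medians between -0.07 and 0.02 for the strain differences.

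The genes lie in several chromosomal clusters, so neighbouring genes were read as well. Over 181 distinct genes among the 10 nearest measured neighbours of each, 16.6% passed between the strains on the control diet and 16% on CCH, against 12.9% of all genes. Beside Gabra5 and Gabrg3, which are neighbours, Atp10a, a phospholipid flippase gene, was higher in SAM/P-8 by 1.11 on the control diet and by 0.95 on CCH, and Ube3a, a ubiquitin ligase gene, was higher by 0.32 on the control diet. Beside Gabbr1, 1 neighbour was higher and 4 were lower on the control diet, and 1 was higher and 1 lower on CCH. The higher one was H2-M3, a gene of the major histocompatibility complex, by 0.64 and 0.68. The lower ones on the control diet were Zfp57 at -0.76, Olfr103 at -2.32, Olfr124 at -0.37 and Olfr128 at -0.50, and on CCH Olfr124 at -0.49. In the cluster of Gabrg1, Gabra2, Gabra4 and Gabrb1, Guf1 differed by -0.28 and Cox7b2 by 0.52 on the control diet. Beside Slc12a2, 2 neighbours were higher and 3 lower on each diet. Beside Slc6a13, 3 were higher and 0 lower on each diet, among them Usp18 by 3.23 on the control diet and 3.74 on CCH. Between the diets in SAM/P-8, Ube3a differed by -0.24 and passed. Neighbours of other genes that passed are not all named here. These neighbours were chosen after their values were seen.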

How the data were processed

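Values were the deposited scanner files of 16 arrays, whose processed signal is an intensity, per the file headers. Those headers name Agilent Feature Extraction 9.5.3.1 and mm9 as the annotation of the array design. The deposited table of the authors is on a log2 scale, centred so that each probe has a median of 0, and served as an alternative; its column medians lay between -0.038 and 0.037. Deposited flags, other than measured values, marked the spots that stood above background, and 187 non-uniform spots were left out. The processed signal was taken as log2 minus the 75th percentile of non-control probes, and spots of a probe were averaged. Of 41174 probes 29009 were kept, those flagged as above background on every array of some group. Probes were named through RefSeq accessions, for 24844 of them, and the brightest probe stood for a gene. limma 3.58.1 in R 4.3.3 fitted group means over all 16 arrays, tested on simulated data first, with Benjamini-Hochberg adjustment over the probes kept and a threshold of 0.05. The normexp alternative used median signals, because mean signals are not among the columns used here. Other alternatives were the scaling, the filter, array weights, the variance prior, the replicate number as a block and leaving out each array. All genes are accounted for by name; of each other list up to 4 genes past the threshold, or the 2 with the smallest p, could be named, and some genes that this rule names are not reported here. The genes and lists were chosen with earlier results of these data known. Replicate numbers equal slide positions on 16 of 16 arrays. Arrays with the same number in different groups did not deviate together (median correlation 0.01 over 24 such combinations).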

Additional observations from a re-analysis of the deposited data

Results flagged for a closer look

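In groups of 4 arrays, a value was looked at again when its gap to the nearest other, as a share of the range of the group, exceeded the 95% critical value of Dixon. Chance gives about 1 such value in 20 groups, and 4 were found in 90. Gabra6 was at 0.60 on SAM/P-8 control replicate 1, where the other arrays of the group lay between -7.98 and -7.65. Slc6a13 was at -0.33 on SAM/R-1 control replicate 2, where the group otherwise ran from -0.94 to -0.85. Gabra2 was at 2.22 on SAM/P-8 control replicate 2, against 2.46 to 2.47. Gabrr1 was at -4.24 on SAM/R-1 control replicate 4, against -3.85 to -3.80.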

How the results depend on the processing

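By the brightest probe 0 of 22 genes passed in each of the 5 comparisons, and the count changed as follows. Leaving out 1 array in turn gave 0 to 1 genes for the strain difference on the control diet, 0 to 1 on CCH, 0 to 1 for the diet in SAM/P-8, and 0 to 0 for the diet in SAM/R-1 and for the interaction. Without SAM/P-8 control replicate 4 or SAM/R-1 control replicate 1 the control-diet gene was Gabrg1. On CCH it was Slc6a13 without SAM/P-8 control replicate 1 (0.96, limma adjusted p = 0.0269) or SAM/P-8 CCH replicate 2 (1.20, limma adjusted p = 0.0392), Gabrg1 without SAM/P-8 CCH replicate 1 and Slc6a11 without SAM/P-8 CCH replicate 4. SAM/P-8 control replicate 1 is not among the arrays compared on CCH, and the Slc6a13 difference was 0.96 with it as well. That array enters there only through the spread estimated over all 16 arrays. For the diet in SAM/P-8 the gene was Gabrg3 without SAM/P-8 control replicate 4. A variance prior with a trend on intensity gave 1 gene on the control diet, Gabrg1. For the strain difference on CCH, median scaling and a fit on only the arrays compared each gave 1, Gabrg1, and array weights gave 3, Gphn, Slc6a11 and Slc6a13. Chosen after seeing the data, leaving out both arrays with markers of other regions gave 1 on CCH, Slc6a11, and counting any probe gave 1 on each diet, Gabbr1. Leaving out the 5 arrays low in choroid plexus markers, also chosen after seeing the data, gave 2 on the control diet, Gabrg1 and Gabrg3. Without SAM/P-8 CCH replicate 4 a dimmer Gabbr2 probe also passed on CCH (0.28, limma adjusted p = 0.0155). With normexp background the interaction of Gabrg3 turned to -0.06 and the diet difference of Gabrr1 in SAM/R-1 to 0.27, and the cause was not tested. The strain differences of the second Gabbr1 probe kept their direction under every alternative run on it and passed in all but 1, the control-diet difference without the 5 arrays low in choroid plexus markers (0.21, limma adjusted p = 0.0577).

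The replicate number as a block left the count at 0 of 22 in all 5 comparisons and moved those over all probes, given next, to 3804, 3738, 158, 19 and 38. The numbers do not pair the arrays: correlations of deviations lay between -0.25 and 0.30 for equal numbers and between -0.34 and 0.37 for different ones, and the best correlated array had the same number in 13 of 48 cases. The slide as a block could not be fitted. Over all probes, 4039, 4005, 269, 32 and 49 passed for the strain difference on the control diet and on CCH, the diet in SAM/P-8 and in SAM/R-1, and the interaction. With normexp these were 967, 851, 0, 0 and 0, with 2903, 2508 and 249 of the last 3 at an unadjusted p under 0.05 in limma. The other alternatives gave 2846 to 4571, 1514 to 4945, 28 to 440, 2 to 135 and 13 to 56, the lowest strain counts without the 5 arrays low in choroid plexus markers. Dim probes such as those of Gabrg3 and Gabrr1 lie nearest to background.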
